A study of Mus musculus with 10 samples.

Results

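The genes described here are the cytotoxic effectors of lymphocytes, 10 genes chosen by symbol out of the 36009 genes of the deposited table: the granzymes Gzma, Gzmb, Gzmc, Gzmd, Gzme, Gzmf and Gzmk, the pore former Prf1, the granule protein Nkg7 and the death ligand Fasl. Libraries of polyadenylated RNA came from 10 CT26 tumors grown under the skin, 1 tumor per mouse, all from untreated wild-type BALB/c females whose age is not in the labels. CT26 is a mouse colorectal carcinoma line that grows in immunocompetent BALB/c mice. Each library came from tissue removed at an incomplete resection, before a hydrogel loaded with poly(I:C), a synthetic double-stranded RNA, was laid on the tumor left behind. Of the 10 mice, 6 later cleared the tumor (responders) and 4 showed no slowing of tumor growth (non-responders), and the question is whether the effector genes already differed before treatment.

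Cytotoxic T cells and natural killer (NK) cells kill a target by releasing granules at the contact site. Perforin opens pores, granzymes enter and cleave proteins of the target, and Fas ligand on the killer engages the Fas receptor as a separate route to apoptosis. Granzymes are made as inactive proenzymes and are stored on the proteoglycan serglycin, and cells that handle them carry serpin inhibitors. In mice, a row of closely related granzyme genes beside Gzmb is expressed mostly in strongly activated killer cells.

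Total estimated counts ran from 23374649 to 38042544 per tumor, and all 10 effector genes passed the filter on low counts. The labels name no batch, and tumors are numbered within a group in an order that pairs nothing. Epithelial genes were checked because the line is labelled a carcinoma: Krt8 and Krt18 stayed at or below 0.565 and 0.0936 CPM in every tumor (TMM-scaled CPM, which corrects counts for library size), Epcam at or below 0.709 CPM and Cdx2 at or below 1.61 CPM, while Cdh1 had 2.63 to 7.02 CPM and the colonic keratin Krt20 had a median of 34.9 CPM. Non-responder 1 stood apart, with the lowest level of all 10 effector genes, so results are also given without it.

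Of the 10 effector genes 8 had higher estimates in responders, but few passed the test across all genes. Nkg7 and Fasl rose, Prf1, Gzmk and Gzmb had estimates between 0.93 and 1.52 on the log2 scale that missed the threshold, and the cluster paralogs Gzmc, Gzmd, Gzme and Gzmf showed no consistent direction. By edgeR's quasi-likelihood test, with Benjamini-Hochberg adjustment over all 16041 genes tested, 2 of 10 members passed an adjusted p of 0.05, both higher in responders. Over all genes tested, 8.06% passed in either direction and 4.71% passed as higher. At an unadjusted p under 0.05, 5 of 10 members were higher, against 15.6% of all genes. In 2 members every responder lay above every non-responder, which held for 5.84% of all genes. The median log2 fold change of the members was 0.78, against -0.0086 over all genes tested. Without non-responder 1, log2 fold changes were 1.30 for Gzmk, 1.29 for Nkg7, 1.05 for Fasl, 1.0 for Prf1, 0.67 for Gzmb and 0.34 for Gzma. No member then passed (edgeR adjusted p from 0.0849), and 16 of 16285 genes passed in all. An unadjusted p under 0.05 by edgeR was found for 5 of 10 members and for 3654 of those 16285 genes, in either direction.

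**Figure D1:**
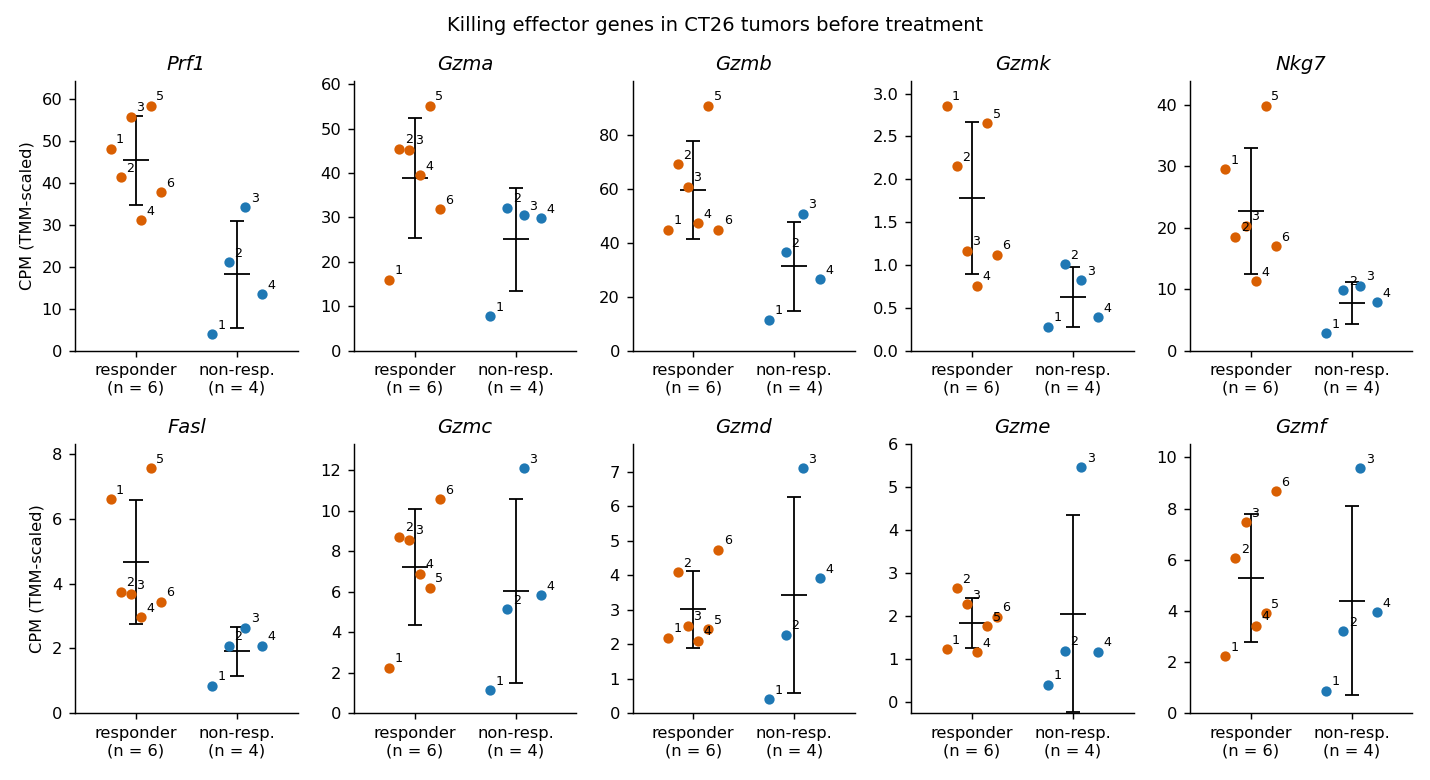
Level of each effector gene in TMM-scaled CPM (linear axis) in 6 responder and 4 non-responder tumors. Each point is 1 tumor with its number, and the dash and bars are the mean ± SD. Nkg7 and Fasl do not overlap between the groups, non-responder 1 is the lowest tumor in every panel, and non-responder 3 is the highest for Gzmc, Gzmd, Gzme and Gzmf.

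Nkg7, a granule membrane protein of killer lymphocytes that is needed for full granule release, was 1 of the 2 genes that rose. Its gene (ENSMUSG00000004612) lies at chr7:43437073-43438249 on the plus strand of GRCm38. Responders ranged from 11.4 to 39.9 CPM with a median of 19.5 CPM, and the non-responders had 2.87, 9.81, 10.6 and 7.87 CPM. Responder 5 was highest, responder 4 was the lowest responder and still lay above non-responder 3, the highest non-responder. The means were 22.8 ± 10.3 CPM (SD, n = 6) and 7.78 ± 3.47 CPM (SD, n = 4). The edgeR log2 fold change was 1.55 ± 0.39 (SE) with an adjusted p of 0.0408. Reassigning the tumors in all 210 ways gave an exact permutation p of 0.00476 (two-sided), the smallest this design allows. Adjusted over all genes tested, that permutation p was 0.0653 for both Nkg7 and Fasl and higher for the other members, so no member passed by it. The call did not hold in 8 of the 10 fits that left out 1 tumor: it held only without responder 4 (edgeR adjusted p = 0.0260) or without non-responder 2 (0.0416), and the highest adjusted p was 0.0979, without non-responder 4. The fold change itself stayed between 1.29 and 1.73 in those 10 fits. In bulk tumor RNA, more killer cells and more of the RNA per cell cannot be told apart, which applies to every gene below.

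Fasl, the death ligand that triggers Fas on target cells, was the other gene that rose (ENSMUSG00000000817, chr1:161780689-161788495, minus strand). Responders ranged from 2.97 to 7.55 CPM with a median of 3.71 CPM. The non-responders had 0.847, 2.09, 2.64 and 2.08 CPM. Again no responder fell into the non-responder range, and responders 5 and 1 were well above the other 4. The log2 fold change was 1.28 ± 0.35 (SE, edgeR adjusted p = 0.0467), and the exact permutation p was 0.00476 (0.0653 adjusted). The call held in 1 of the 10 fits without 1 tumor, that without responder 4 (edgeR adjusted p = 0.0358), and reached an adjusted p of 0.107 without non-responder 1. The fold change stayed between 1.05 and 1.46 in those fits. In libraries thinned to the smallest total, Fasl did not pass (edgeR adjusted p = 0.0518).

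Prf1 encodes perforin, the pore former through which granzymes reach the target (ENSMUSG00000037202, chr10:61297833-61304680, plus strand). Responders had 31.2 to 58.6 CPM with a median of 44.8 CPM, and the non-responders had 3.87, 21.1, 34.3 and 13.5 CPM. Only responder 4 lay below non-responder 3, and the other 5 responders exceeded every non-responder. The log2 fold change of 1.33 ± 0.42 (SE) did not pass (edgeR adjusted p = 0.0706, exact permutation p = 0.00952). It passed by limma voom (adjusted p = 0.0431) and by DESeq2 (0.0462). In 15 of 17 alternative settings Prf1 did not pass, with an edgeR adjusted p up to 0.160, without non-responder 4. Its coefficient of variation was 23.4% over responders and 70.6% over non-responders.

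Gzmb encodes granzyme B, a protease that cleaves proteins of the target cell (ENSMUSG00000015437, chr14:56258838-56262260, minus strand). It was the most abundant member by CPM, with 44.8 to 90.8 CPM in responders, a median of 54.0 CPM, and 11.4, 36.4, 50.7 and 26.5 CPM in the non-responders. Non-responder 3 lay inside the responder range, while the other non-responders lay below all responders. The log2 fold change was 0.93 ± 0.34 (SE, edgeR adjusted p = 0.102, exact permutation p = 0.0190).

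Gzma and Gzmk encode tryptase-type granzymes and sit beside each other on chromosome 13, at chr13:113093825-113100981 and chr13:113171608-113225908, both on the minus strand. Gzma ranged from 16.0 to 55.2 CPM in responders with a median of 42.4 CPM, and was 7.75, 32.2, 30.5 and 29.8 CPM in the non-responders. Responders 1 and 6 lay below non-responder 2, and responder 1, which ranked high for Prf1, Nkg7 and Fasl, had the lowest Gzma of the responders. The log2 fold change of Gzma was 0.63 ± 0.38 (SE, edgeR adjusted p = 0.301). Gzmk, found in less differentiated memory-type T cells, was scarce, with 0.759 to 2.86 CPM in responders, a median of 1.66 CPM, and 0.282, 1.01, 0.823 and 0.392 CPM in the non-responders. Here responder 1 was the highest tumor, and 5 of 6 responders lay above every non-responder. The Gzmk difference of 1.52 ± 0.46 log2 (SE) rested on 7 to 95 estimated counts per tumor and missed the threshold (edgeR adjusted p = 0.0634). It passed without responder 4 (0.0379), without non-responder 2 (0.0463) and by DESeq2 (0.0109). In 14 of 17 alternative settings Gzmk did not pass, with an edgeR adjusted p up to 0.153, without non-responder 1.

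**Figure D2:**
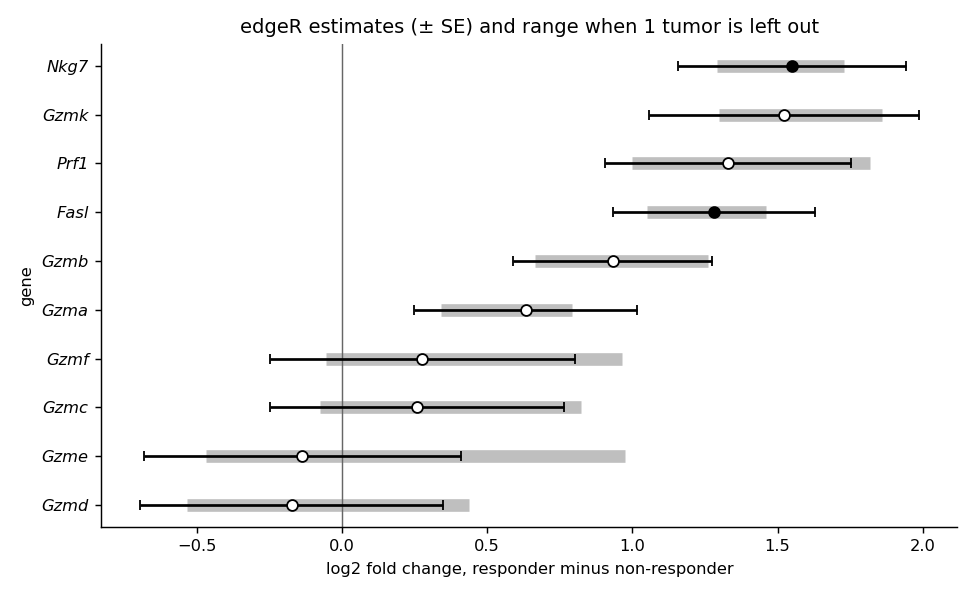
Log2 fold change of each effector gene, responder minus non-responder, from edgeR in 10 tumors. Circles and black bars are the estimate ± SE, filled circles passed an adjusted p of 0.05, and grey bands span the 10 estimates obtained when 1 tumor is left out. Nkg7, Gzmk, Prf1, Fasl, Gzmb and Gzma stay above 0 throughout, while the bands of the other 4 genes cross it.

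The remaining granzymes, Gzmc, Gzmd, Gzme and Gzmf, are 4 paralogs of Gzmb in a cluster of 7 granzyme genes over 144.6 kb (chr14:56117626-56262260, GRCm38), all on the minus strand. Their coding sequences overlap enough to matter for counting. Gzmd and Gzme matched at 93.3% of aligned coding bases, and Gzmb and Gzmc at 75.6%, whereas Gzma and Gzmk matched at 54.8%. Of the 31-base words of the Gzme transcript, 42.1% also occur in another gene, most often Gzmd, against 38.2% for Gzmd, 34.9% for Gzmf, 14.8% for Gzmc, 1.4% for Gzmb and 0% for Gzma, Gzmk, Nkg7 and Fasl. A stretch of 216 coding bases that runs from exon 3 into exon 4 shows how little separates the closest pair. It spans chr14:56130250-56130651 in Gzmd and chr14:56118301-56118702 in Gzme, the intron left out, and is written 5′ to 3′ on the coding strand with the bases that differ in capitals.
Gzmd: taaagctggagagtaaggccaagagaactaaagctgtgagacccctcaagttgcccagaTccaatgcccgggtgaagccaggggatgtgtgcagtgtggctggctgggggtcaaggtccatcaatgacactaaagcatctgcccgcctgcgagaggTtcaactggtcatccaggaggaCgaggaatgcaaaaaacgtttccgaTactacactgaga
Gzme: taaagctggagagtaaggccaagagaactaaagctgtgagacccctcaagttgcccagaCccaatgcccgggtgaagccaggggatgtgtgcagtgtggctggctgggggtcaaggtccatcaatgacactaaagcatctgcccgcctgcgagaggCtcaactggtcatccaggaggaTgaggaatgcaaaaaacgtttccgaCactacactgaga
Only 4 positions differ, and 96 bases in a row are identical. Where reads could not be placed, the estimate was split: non-responder 3 had 163.549 counts for Gzmd and 126.451 for Gzme. The sum of the paralogs does not depend on a split between them and is given beside the single genes. It can still depend on splits with other genes: the gene sharing most words with Gzmf was Gm4022 (13.9%), and in responder 5 Gzme had 62.6437 counts while the other 3 paralogs had whole counts.

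The paralogs also resemble each other upstream, and whether this bears on their levels was not tested. The 120 bases before both annotated starts (RefSeq and GENCODE) are given with the longest run common to the 4 paralogs in capitals. They come from RefSeq promoter windows (GRCm38.p6, all minus strand) and are written 5′ to 3′. They lie at chr14:56234658-56234777 (Gzmc), chr14:56132609-56132728 (Gzmd), chr14:56120626-56120745 (Gzme), chr14:56211418-56211537 (Gzmf) and chr14:56262335-56262454 (Gzmb).
Gzmc: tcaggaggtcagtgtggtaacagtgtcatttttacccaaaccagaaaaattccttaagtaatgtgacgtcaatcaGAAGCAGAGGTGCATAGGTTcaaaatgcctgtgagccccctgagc
Gzmd: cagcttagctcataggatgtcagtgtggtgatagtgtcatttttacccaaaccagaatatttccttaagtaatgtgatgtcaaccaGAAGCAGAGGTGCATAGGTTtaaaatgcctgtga
Gzme: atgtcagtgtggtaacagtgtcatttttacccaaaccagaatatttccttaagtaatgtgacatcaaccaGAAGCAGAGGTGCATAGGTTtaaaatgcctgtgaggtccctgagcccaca
Gzmf: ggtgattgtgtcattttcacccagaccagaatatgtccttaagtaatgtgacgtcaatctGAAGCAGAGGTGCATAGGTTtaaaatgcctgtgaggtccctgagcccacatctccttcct
Gzmb: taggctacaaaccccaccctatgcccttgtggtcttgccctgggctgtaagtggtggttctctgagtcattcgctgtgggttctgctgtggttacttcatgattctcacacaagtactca
The common run of 20 bases occurred in 5 of 32851 promoter windows of 300 bases, those of the 4 paralogs and of the neighboring Gzmg. Identity between the 4 stretches was 59.6% to 85.6% of aligned positions, and that of Gzmb to them was 35.2% to 41.9%. The Gzmb stretch begins at 56262335, away from the end of its gene model at 56262260, and leaves out the bases between. The paralog stretches begin next to their gene models, so the Gzmb identities compare unlike positions. The RUNX core TGTGGT, searched on both strands of the whole window, occurred in 8 of 10 members (not in Gzmk and Fasl) and in 16.8% of all windows. The cyclic AMP response element TGACGTCA occurred in Gzmc and Gzmf and in 1.8% of all windows. The T-box motif AGGTGTGA (1.3% of all windows) occurred in Nkg7, and the STAT motif TTCNNNGAA (8.3%) in Gzmb and Nkg7. These motifs did not overlap the common run in capitals, and a match describes letters only.

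None of the 4 paralogs differed between the groups by more than the spread between tumors. Gzmc (ENSMUSG00000079186) had 2.26 to 10.6 CPM in responders, a median of 7.73 CPM, and 1.13, 5.15, 12.1 and 5.82 CPM in the non-responders. Gzmf (ENSMUSG00000015441) had 2.23 to 8.69 CPM in responders, a median of 4.98 CPM, and 0.888, 3.21, 9.58 and 3.95 CPM in the non-responders. For both genes non-responder 3 exceeded all responders and non-responder 1 fell below all of them. Gzmd (ENSMUSG00000059256) had 2.11 to 4.75 CPM in responders, a median of 2.49 CPM, and 0.404, 2.28, 7.11 and 3.92 CPM in the non-responders. Gzme (ENSMUSG00000022156) had 1.15 to 2.65 CPM in responders, a median of 1.87 CPM, and 0.404, 1.19, 5.46 and 1.18 CPM in the non-responders. The groups overlapped in the same way, with both ends of the range taken by non-responders 3 and 1. Log2 fold changes were 0.26 ± 0.51 (Gzmc), -0.17 ± 0.52 (Gzmd), -0.14 ± 0.55 (Gzme) and 0.28 ± 0.53 (Gzmf, all SE), with edgeR adjusted p values from 0.769 to 0.896. Their direction depended on single tumors: without non-responder 3, Gzmd became 0.44 and Gzme 0.98 (edgeR adjusted p = 0.628 and 0.133), and without non-responder 1, Gzmc became -0.077 and Gzmf -0.053.

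Summed over the 4 paralogs, the level was 17.4 ± 6.57 CPM (SD, n = 6) in responders, from 7.92 to 26.0 CPM. In non-responders it was 15.9 ± 13.2 CPM (SD, n = 4). The non-responders had 2.82, 11.8, 34.2 and 14.9 CPM, so that they held both the lowest and the highest tumor. Perforin set against this sum placed the tumors differently. Responders 5, 3 and 1 had the highest Prf1 (58.6, 55.9 and 48.2 CPM), with sums of 14.3, 20.8 and 7.92 CPM. Non-responder 3 combined 34.3 CPM of Prf1 with the highest sum. Per kilobase, the ratio of the summed paralogs to Prf1 was 0.46 to 1.94 in responders and 2.06, 1.58, 2.81 and 3.09 in non-responders 1 to 4. It was lower in responders on average (1.14 ± 0.53, SD, n = 6, against 2.38 ± 0.69, SD, n = 4), and the groups overlapped only in that responder 6 exceeded non-responder 2.

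**Figure D3:**
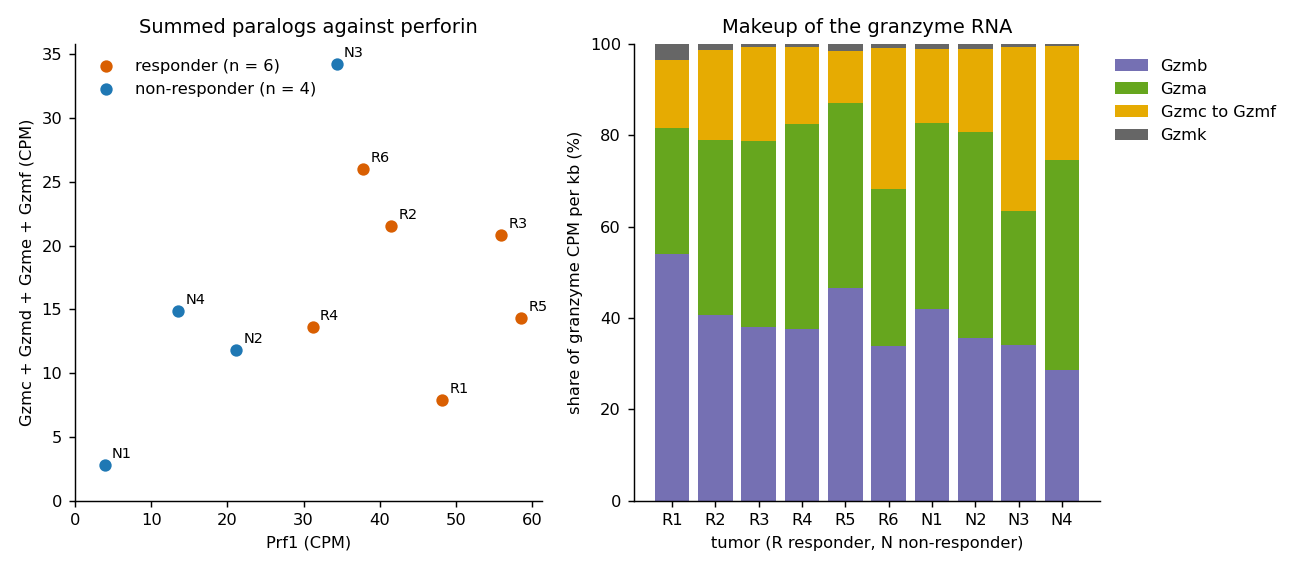
Left, summed CPM of Gzmc, Gzmd, Gzme and Gzmf against CPM of Prf1, 1 point per tumor (R responder, N non-responder). Right, share of the granzyme CPM per kilobase held by each gene or group in each tumor, in percent. Responder 1 has the largest Gzmb and Gzmk shares (54.0% and 3.57%), and non-responder 3 the largest share of Gzmc to Gzmf (36.0%).

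The makeup of the granzyme RNA, compared per kilobase of exon so that genes of different length can be set side by side, was dominated by Gzma and Gzmb in every tumor. Gzmb held 33.9% to 54.0% of granzyme CPM per kilobase in responders and 28.6% to 42.0% in non-responders. Gzma held 27.5% to 44.8% and 29.3% to 45.9%. The 4 paralogs held 11.5% to 30.8% and 16.3% to 36.0%, and Gzmk 0.623% to 3.57% and 0.437% to 1.07%. All of these ranges overlapped. Across the 10 members, Gzmb or Gzma led the order of CPM per kilobase in 9 tumors and Nkg7 led in responder 1. Gzmk came last in 9 tumors, responder 1 again being the exception, where Gzme was last. Neighbors in that order often lay within the spread of their group: mean CPM per kilobase in responders was 41.5 for Gzmb, 38.6 for Gzma, 24.9 for Nkg7 and 17.6 for Prf1, and in non-responders 21.8, 24.9, 8.51 and 7.04.

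Markers of killer cells were also compared, and every tested gene of the T cell and NK lists had a higher estimate in responders. A T cell score, the mean log2 CPM of 7 T cell receptor and CD8 genes, was 3.64 ± 0.66 (SD, n = 6) in responders and 2.39 ± 0.71 (SD, n = 4) in non-responders, and 5 of 6 responders exceeded every non-responder. Of its 7 genes, 7 were higher at an unadjusted p under 0.05 and 1 passed, Cd8b1 of the CD8 coreceptor (log2 fold change 1.81 ± 0.49 SE, edgeR adjusted p = 0.0472). An NK score over 5 of 7 listed genes was 2.85 ± 0.40 against 1.72 ± 0.70 with no overlap, and of those 5 genes the lectin receptors Klre1 and Klrk1 passed (edgeR adjusted p = 0.0439 and 0.0448). Their summed levels were 46.8 to 191.0 CPM in responders and 20.3 to 61.3 CPM in non-responders for the T cell list, and 50.5 to 100.8 CPM and 12.4 to 41.6 CPM for the NK list. The NK sum was made up mostly of Klrk1 (means of 44.7 and 19.6 CPM).

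The T cell score of the same tumor was then subtracted from each gene. The difference in log2 CPM, responder minus non-responder mean, was then 0.026 for Fasl, 0.17 for Gzmk, 0.34 for Nkg7 and 0.42 for Prf1. It was -0.18 for Gzmb, -0.52 for Gzma, -0.73 for Gzmc, -0.94 for Gzmd, -0.88 for Gzme and -0.70 for Gzmf, where the differences of the 4 paralogs before subtraction were 0.52, 0.31, 0.37 and 0.55. Every one of these values overlapped between the groups. Nkg7 lay 0.69 to 0.84 above the score in the 6 responders and 0.099 to 0.76 above it in the 4 non-responders, and Fasl lay 1.07 to 1.72 and 1.13 to 1.74 below it. Gzma spread widely, from -0.16 in responder 1 to 2.64 above the score in another responder. Relative to the NK score, the differences were 0.53 for Prf1, 0.45 for Nkg7, 0.29 for Gzmk, 0.14 for Fasl, -0.059 for Gzmb and -0.40 for Gzma, and -0.58 to -0.82 for the 4 paralogs. These values overlapped between the groups too, although 5 of 6 responders lay above every non-responder for Nkg7.

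**Figure D4:**
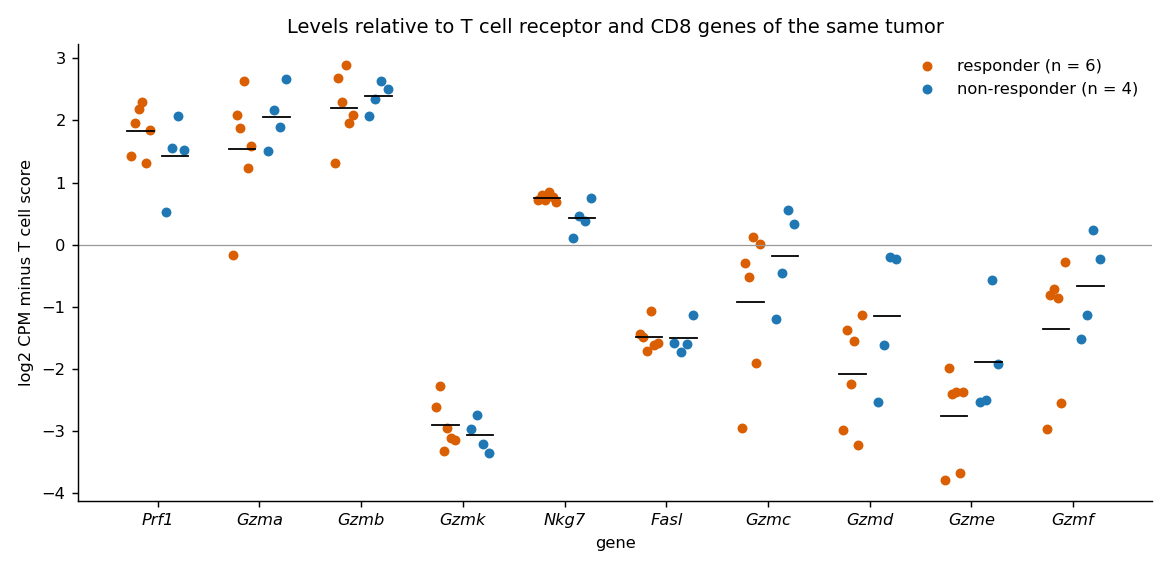
Log2 CPM of each effector gene minus the T cell score of the same tumor, 1 point per tumor, with a line at the mean of each group. Groups overlap for all 10 genes. Nkg7 lies in a narrow band in responders, and the means of Gzmc, Gzmd, Gzme and Gzmf are lower in responders.

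Some listed markers of other cell types differed as well, and their part in the effector differences was not tested. The background for each count is the share over all genes tested, 4.71% passed as higher and 8.06% in either direction. The summed level of 6 macrophage genes was 2253 to 3401 CPM in responders and 1680 to 2202 CPM in non-responders, and the complement genes C1qa and C1qb, Cd68 and Adgre1 passed as higher (4 of 6, log2 fold changes 0.47 to 0.87). The summed level of 6 neutrophil genes was 168.4 to 249.4 CPM against 259.3 to 385.9 CPM, a sum made up mostly of the gelatinase gene Mmp9 (means of 167.2 and 268.0 CPM), which passed as lower (log2 fold change -0.68 ± 0.18 SE, edgeR adjusted p = 0.0444). Of the 5 neutrophil genes tested, only Mmp9 had an unadjusted p under 0.05, and S100a8, S100a9 and Cxcr2 had log2 fold changes of -0.09, -0.05 and -0.17. Of 7 mast cell genes, a lineage that also stores granule proteases, 2 passed as higher, the chymase gene Cma1 and Kit, with sums of 51.1 to 178.7 CPM against 27.4 to 59.1 CPM. Of 5 plasmacytoid dendritic cell genes 4 were tested and Bst2, which interferon also induces in other cells, passed as higher (sums of 206.1 to 249.4 CPM against 115.3 to 195.2 CPM). That sum was made up mostly of Bst2 (means of 202.3 and 138.0 CPM). Siglech, Ccr9 and Klk1 had log2 fold changes of 0.24, 0.35 and 0.14 and did not pass (edgeR adjusted p = 0.394, 0.114 and 0.712). Of 5 skeletal muscle genes 2 passed as higher, Acta1 and Ckm (sums of 347.4 to 1122 CPM against 307.7 to 401.4 CPM). No gene passed among those of CD4 and regulatory T cells, B cells, adipocytes and fibroblasts. By edgeR, those with an unadjusted p under 0.05 were 0 of 4 tested, 1 of 3, 4 of 4 and 0 of 4, against 4666 of all 16041 genes. The smallest p belonged to Cd4 and Foxp3 (edgeR adjusted p = 0.200 and 0.464), Cd22 and Ms4a1 (0.0836 and 0.513), Fabp4 and Cfd (0.0504 and 0.0517), and Dcn and Col1a2 (0.477 and 0.895).

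Likeness between members was described, with no test, by Pearson correlation of log2 CPM over the 10 tumors, which share the group difference. To Prf1, r was 0.956 for Gzmb, 0.936 for Nkg7, 0.913 for Fasl and 0.842 for Gzmk. For Gzmd, r was 0.904 with Gzmf, 0.88 with Gzmc and 0.879 with Gzme. These paralogs share transcript words, and the part of that sharing in r was not tested. Between Prf1 and Gzmd r was 0.655, but it rested on single tumors and was -0.068 over the 8 tumors left without non-responders 1 and 4, the farthest from the median of Prf1, and -0.22 within the 6 responders. Over those same 8 tumors, r to Prf1 was 0.755 for Gzmb, 0.868 for Nkg7, 0.833 for Fasl and 0.196 for Gzma. Within the 6 responders, r to Gzmd was 0.755 for Gzmf, 0.623 for Gzmc and 0.70 for Gzme. Over the 8 tumors left without non-responders 1 and 3, the farthest from the median of Gzmd, it was 0.675, 0.568 and 0.487.

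Among 13610 genes outside the lists with an average of at least 1 CPM, those most like Prf1 were Txk, a kinase of T and NK cells (r = 0.989), Evl (0.987), Rcn1 (0.986), the complement gene C2 (0.984) and Gm4841 (0.983). They kept r between 0.889 and 0.971 without non-responders 1 and 4. Those most like Gzmd were Cdk5rap3 (0.935), Bglap3 (0.918), Ppa1 (0.917), Gmppa (0.917) and Zscan2 (0.904). Without non-responders 1 and 3, their r was 0.489 to 0.825.

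Genes that make, move and restrain these effectors were read from 6 lists of 60 genes, of which 55 were tested. Of the 55, 9 passed as higher in responders and 3 as lower by edgeR, and the median log2 fold change was 0.13. Over all genes tested, 4.71% passed as higher and 8.06% in either direction, with a median of -0.0086. Those shares are the background for the count of each list below. The calls depended on single tumors: 0 of the 55 passed without responder 3, without non-responder 1 or without non-responder 4. Calls fell over all genes in those fits too, to 17, 16 and 0 genes, against 1293 of 16041 in the main fit.

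The release machinery had the most calls, with 5 of 12 tested genes higher. Sytl2, a synaptotagmin-like protein that tethers granules, was 4.26 to 9.76 CPM in responders and 1.65 to 3.77 CPM in non-responders, with no overlap (log2 fold change 1.28 ± 0.28 SE, edgeR adjusted p = 0.0321). Rab27a, the small GTPase that docks granules, rose by 0.69 ± 0.18 (SE, edgeR adjusted p = 0.0447). Unc13d, the priming factor Munc13-4 that works with it, rose by 0.64 ± 0.16 (0.0387). The fusion factor Stxbp2 rose by 0.40 ± 0.10 (0.0378) and the actin regulator Coro1a by 0.58 ± 0.13 (0.0330). The other 7 tested, among them Stx11 (0.47 ± 0.17, edgeR adjusted p = 0.0942), did not pass. These genes are also used by myeloid cells, and macrophage markers differed between the groups as given above.

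Among 8 genes of granule content and proenzyme processing, 2 rose and 1 fell. Ctsc, the dipeptidyl peptidase cathepsin C that removes the activation dipeptide of granzymes, was 754.9 to 1052 CPM in responders and 363.7 to 705.5 CPM in non-responders (log2 fold change 0.67 ± 0.16 SE, edgeR adjusted p = 0.0360). Ctsh, which can stand in for it with Gzmb, rose by 0.49 ± 0.11 (0.0330). Ctsl, a lysosomal cathepsin, fell by 0.40 ± 0.07 on the log2 scale (SE, edgeR adjusted p = 0.0222), with 1076 to 1319 CPM in responders and 1467 to 1659 CPM in non-responders. The granule proteoglycan gene Srgn had a log2 fold change of 0.28 ± 0.14 (SE) and did not pass (0.224).

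Of the 9 listed serpin inhibitors 6 were tested and none passed by edgeR, while 4 had an unadjusted p under 0.05, against 4666 of all 16041 genes. Serpinb9, which blocks granzyme B in the cells that carry it, had 54.0 to 70.1 CPM in responders and 21.1 to 50.6 CPM in non-responders (0.56 ± 0.20 log2, SE, edgeR adjusted p = 0.0934). Serpina3f had 21.1 to 38.9 CPM against 2.66 to 20.6 CPM (1.17 ± 0.41 log2, SE, 0.0935). Neither gene overlapped between the groups.

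On the receiving side, 2 of 18 tested death receptor and apoptosis genes passed, both lower in responders. That count is near the 8.06% of all genes that passed in either direction. Of these, Tnfrsf10b, the receptor for the ligand TRAIL, fell by 0.39 ± 0.07 on the log2 scale (SE, edgeR adjusted p = 0.0243). The ligand of that receptor, Tnfsf10, had 28.8 to 46.8 CPM in responders and 5.25 to 27.0 CPM in non-responders (1.20 ± 0.34 log2, SE) and missed the threshold (edgeR adjusted p = 0.0521). It was named after its values were seen, as were Stx11, Srgn and the receptor of Fasl, Fas, at 0.34 ± 0.17 log2 (SE, 0.199).

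Of 9 transcription factors of cytotoxic lymphocytes, 2 passed. Tbx21, encoding T-bet, a driver of the effector program, was 2.05 CPM at its lowest in responders and 1.91 CPM at its highest in non-responders (log2 fold change 1.57 ± 0.38 SE, edgeR adjusted p = 0.0372). Id2 rose by 0.50 ± 0.13 (0.0461). Among the 3 remaining granzymes, Gzmg of the chromosome 14 cluster (-0.79 ± 0.66 log2, SE, edgeR adjusted p = 0.454) and Gzmm (0.29 ± 0.33, 0.604) did not pass, and Gzmn stayed at or below 0.0904 CPM.

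**Figure D5:**
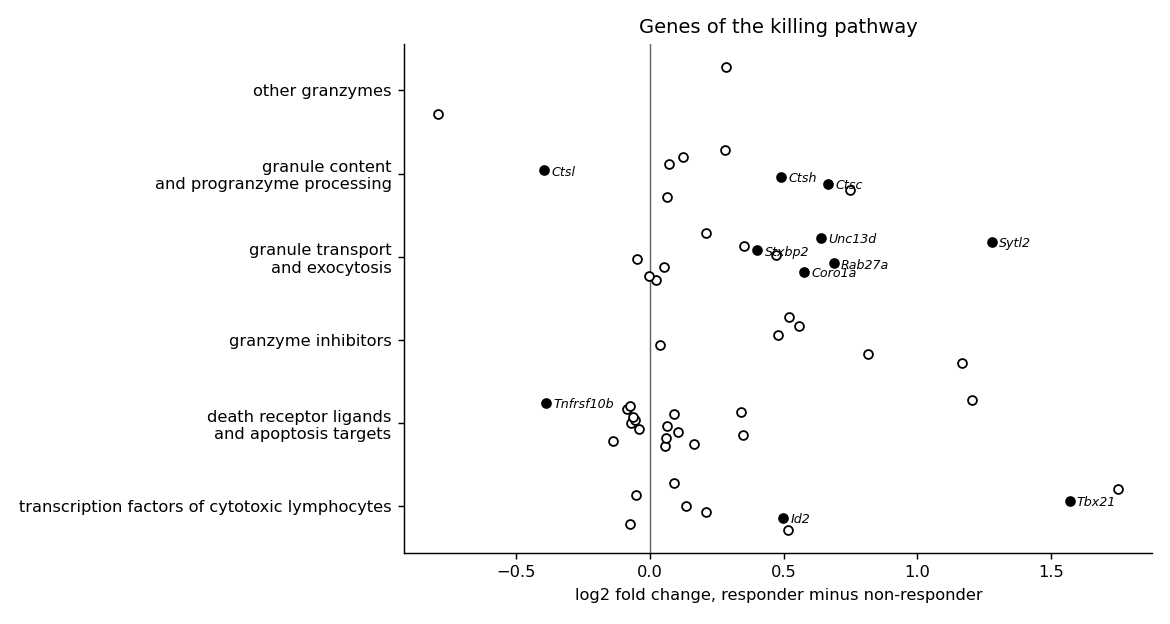
Log2 fold change, responder minus non-responder, of tested genes of the 6 pathway lists, 1 point per gene, from edgeR in 10 tumors, with 1 gene not shown. Filled points passed an adjusted p of 0.05 and are named. Of these, 9 lie above 0, and Ctsl and Tnfrsf10b lie below it.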

How the data were processed

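PolyA RNA of 10 tumors (6 responders, 4 non-responders, by the response label) was analyzed. The authors checked reads with FastQC, estimated transcript abundance with Kallisto on GRCm38 (mm10) and summed transcripts to genes with tximport. Values deposited were expected counts (estimated counts) per gene, without depth scaling; the annotation release, tximport scaling and strand setting were not given in the sources used here. Totals of 23374649 to 38042544 per tumor limit precision mainly for Gzmk, Gzmd to Gzmf and Fasl (21 to 270 estimated counts per tumor).

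Estimated counts were rounded. In R 4.3.3, edgeR 4.0.16 (filterByExpr with minimum count 10, TMM, glmQLFTest, two-sided) was fitted to all genes. Adjustment was by Benjamini-Hochberg, and calls were made at 0.05. SE was the absolute log2 fold change over the root of F. Log2 CPM used a prior count of 2. DESeq2 1.42.0, limma 3.58.1 voom, other filters and scalings, thinned libraries and leaving out each tumor were alternatives. On counts simulated for this comparison over 16041 genes, the edgeR fit recovered 89% of genes changed by a fold of 2 and 100% by a fold of 4. All genes were simulated with the same dispersion (variability between samples) of 0.05, and only genes above a minimum CPM were changed. Members varied more, with coefficients of variation up to 112% in non-responders (Gzme), so these percentages do not apply to them. Gene positions and exon lengths came from GENCODE M21, and promoter windows matched 10 of 10 members by symbol. Sequences were aligned globally with Biopython 1.88.

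Members and lists were chosen with earlier results of these data known, and epithelial genes after the data were seen. Named were all members, per list the genes that passed (at most 6) or else the 2 with the smallest p, and 5 genes most like Prf1 and Gzmd. Further neutrophil and plasmacytoid dendritic cell genes were named to show what their sums rest on. In the apoptosis list, 1 gene is not reported here.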

Additional observations from a re-analysis of the deposited data

Results flagged for a closer look

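Among the non-responders, the Gzma level of non-responder 1 was 7.75 CPM, far from the other 3 tumors at 29.8 to 32.2 CPM, a gap of 0.903 of the whole range of the group. The Gzme level of non-responder 3 was 5.46 CPM against 0.403 to 1.19 CPM in the other 3, a gap of 0.844 of the range. Both exceeded the critical value of Dixon's test for a single outlying sample. In all, 22 sets of values were examined and 2 were flagged, where chance alone gives about 1.1.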

How the results depend on the processing

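Of the members, 1 was called by limma voom (Prf1), 4 by DESeq2 (Gzmk, Prf1, Nkg7 and Fasl), 1 in thinned libraries (Nkg7) and 0 to 3 without 1 tumor. Over all genes, limma voom called 1082 of 16041, DESeq2 called 2575, and thinned libraries gave 1160 of 15523. The count of 3 members came without responder 4, where 1619 of 15985 genes passed. Of the pathway genes, 0 to 15 were called without 1 tumor, against 12 of 55. Groups did not overlap for 2 to 4 members without 1 tumor, and Prf1 joined at 4 both without responder 4 (with Gzmk) and without non-responder 3 (with Gzmb). The share of all genes with every responder above every non-responder was computed only with all 10 tumors (5.84%). For the sum of Gzmc to Gzmf, the difference between group means of its log2 was 0.503, and -0.164 to 1.03 without 1 tumor. The means of the sum itself were closer, at 17.4 CPM in responders and 15.9 CPM in non-responders. Estimates turned direction for Gzmd with limma voom (0.333) and as a mean of log2 CPM (0.311), for Gzme likewise (0.436 and 0.367), for both without non-responder 3 (0.437 and 0.975), and for Gzmc and Gzmf without non-responder 1 (-0.0767 and -0.0533). Without 1 tumor, fold changes spanned -0.0767 to 0.824 (Gzmc), -0.534 to 0.437 (Gzmd), -0.468 to 0.975 (Gzme) and -0.0533 to 0.966 (Gzmf), the ends being those without non-responders 1 and 3. The causes were not tested. Over 170 comparisons of a member with an alternative, 135 kept direction and side of the threshold, 22 lost the call, 5 gained it and 8 turned direction. Leaving out a tumor also changed calls over all genes, which were 1293 in the main fit. They fell to 0 without non-responder 4 (4106 at an unadjusted p under 0.05 by edgeR) and to 16 without non-responder 1. They rose to 1619 without responder 4 and to 1897 without non-responder 2. No paired analysis was possible because the numbers of tumors follow accession order and pair nothing. The scarce Gzmk, Gzmd and Gzme, at 7 to 182 estimated counts per tumor, limit what these depths can show.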
